A study of Mus musculus with 31 samples.

Results

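The genes described are S100a8, S100a9, Lcn2, Csf3, Csf3r, Mmp8, Ngp, Ly6g and Retnlg, which encode calprotectin, granule and secreted proteins of neutrophils, the granulocyte growth factor and its receptor. They were taken by gene name from the annotation of the arrays, which gave 10 probes for 9 of the 24812 genes on the array (56605 probes). They were chosen by their measured levels on these same arrays, the CRC arrays of 7 days included. Their levels and differences are therefore given as a description. Where a member is said to meet the rule for a differentially expressed gene (DEG, defined below), that labels the size of its difference against its error and is no independent test of the member.

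RNA came from the distal colon of BALB/c mice that were 4 to 6 weeks old at the start. Every mouse had received azoxymethane (AOM, a carcinogen that acts in the colon) by intraperitoneal injection 1 week earlier. Dextran sodium sulphate (DSS, which injures the colonic mucosa) was given to all mice at 2% in the drinking water during the first 5 days. The mice of the 2-day groups were sampled before these 5 days had ended, so their DSS course was shorter. The CRC groups were gavaged with water. The CRC + E171 groups were gavaged with the food additive E171 (titanium dioxide) at 5 mg/kg bw/day, on 5 days per week. Mice were sampled after 2, 7, 14 and 21 days, with 1 array per mouse and 31 arrays in all. Each of the 8 groups had 2 males and 2 females, except CRC at 21 days with 1 male and 2 females. No group lacked AOM and DSS, so an untreated level of these genes was not measured. The model is chemically induced, and whole tissue was used, so each array mixes the cell types of the colon. In such bulk tissue, a change in the number of cells of a type and a change in RNA per cell cannot be told apart.

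Neutrophils carry antimicrobial proteins in granules that are filled at successive steps of their maturation in the bone marrow. Granulocyte colony-stimulating factor (G-CSF, encoded by Csf3) drives the production of neutrophils through its receptor Csf3r. The mature cells hold large amounts of calprotectin, a pair of S100 proteins encoded by S100a8 and S100a9 that binds zinc and manganese. In the inflamed gut, calprotectin and lipocalin 2 (Lcn2, which traps bacterial iron carriers) are measured in stool as signs of neutrophil influx. Neutrophils are not the sole source of either protein, since squamous epithelium also makes calprotectin and inflamed gut epithelium makes lipocalin 2.

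All levels below are the log2 of a probe's processed signal relative to the 75th percentile of its own array, so 0 is that percentile and 1 unit is a 2-fold difference. Levels of different probes are not comparable with each other, and a level is followed from array to array for 1 gene at a time. "Well above background" is the call of the scanner software. Between 67.4 and 78.9% of the spots per array had that call, and the 75th percentile of the signal was 1717 to 6536. No pair of arrays was a duplicate (highest Pearson's r between arrays 0.990). The array labelled male 2 of CRC at 14 days had an Xist level of -1.60, among those of the females (all -2.34 or higher) and not of the other 14 males (all -6.53 or lower). Sexes are given here as labelled.

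The probes set what can be read from each gene, so those on which the results turn are shown in the sense direction as printed on the array. The first 4 are whole probes of 60 bases, and the last is the final 30 bases of the Csf3r probe. Capitals mark bases that lie in a run of 20 or more shared with a probe of another gene name.
S100a8: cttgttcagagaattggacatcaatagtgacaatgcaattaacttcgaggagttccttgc
Lcn2: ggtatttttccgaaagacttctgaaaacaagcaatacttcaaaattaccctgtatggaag
Ngp: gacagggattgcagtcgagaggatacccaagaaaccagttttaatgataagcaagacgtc
Ly6g: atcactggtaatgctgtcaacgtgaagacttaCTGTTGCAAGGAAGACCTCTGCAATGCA
Csf3r: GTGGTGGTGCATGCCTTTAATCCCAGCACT

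The S100a8 probe lies at chr3:90473778-90473837 (mouse build mm9, plus strand), and the S100a9 probe at chr3:90496573-90496632 (minus strand). The Lcn2 probe shown covers chr2:32241037-32241281 (minus strand), a span of 245 bases for 60 printed ones, so it aligns to the genome in separate parts. The Ngp probe (chr9:110324266-110324814, plus strand) spans 549 bases in the same way. The Ly6g probe lies at chr15:74989023-74989082 (plus strand). It shares its last 28 bases with the probe of a transcript that has no gene symbol. The Csf3r probe (chr4:125721478-125721537, plus strand) shares 39 of its 60 bases with other probes, over 4 gene names. Of all 56605 probes, 0.740% share 20 bases with probes of 4 or more other gene names. The other 8 probes of these genes shared no such run with another gene's probe.

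S100a8 was the gene with the widest range. In CRC at 2 days its level was -3.84 and -3.71 in the females and -3.55 and -1.95 in the males. In CRC at 7 days it was -5.20 and -3.49 in the females and 6.84 and 5.52 in the males. Both males of CRC at 7 days thus stood far above both females of the same group. With CRC + E171 at 7 days the level was -4.84, -4.67 and -4.65 in 3 mice and 0.83 in male 2. At 14 days the CRC arrays held -1.07 and -1.15 in the females and 1.14 and -3.15 in the males, and the CRC + E171 arrays held -5.06 and -4.47 in the females and -4.92 and 4.36 in the males. At 21 days the CRC arrays ranged from -5.05 to -1.81 and the CRC + E171 arrays from -5.85 to 0.60. Relative to the median of the 28 other arrays (all but both CRC males of 7 days and male 2 of CRC + E171 at 14 days), S100a8 was 1566-fold higher in CRC male 1 of 7 days, 626-fold in male 2 and 280-fold in the CRC + E171 male 2 of 14 days.

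S100a9, which encodes the partner subunit, followed S100a8 closely. Its level was 7.44 and 6.13 in the CRC males of 7 days, against -3.52 and -2.01 in the females of that group. It was 5.89 in male 2 of CRC + E171 at 14 days and 2.93 in male 2 of CRC + E171 at 7 days. In CRC at 14 days it was 1.22 and 1.04 in the females and 3.04 and -1.15 in the males. Across 31 arrays Pearson's r between both calprotectin genes was 0.99 (Spearman's rho 0.97), and over the 28 other arrays it was 0.97 (rho 0.95). Arrays share their scaling and tissue, so these correlations are descriptions.

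Lcn2 was high on fewer arrays. Its level, the mean of 2 probes, was 4.77 and 5.18 in the CRC males of 7 days and 0.47 in male 2 of CRC + E171 at 14 days. The next was -1.51, in male 2 of CRC + E171 at 7 days, and the other 27 arrays lay between -4.10 and -2.69. CRC females of 7 days were at -3.78 and -3.92, which is within that low range. The fold over the median of the 28 other arrays was 308 in CRC male 1 and 411 in CRC male 2 of 7 days, and 15.7 in the CRC + E171 male. The 2 probes of Lcn2 gave the same order of the groups at 7 days, with a CRC + E171 minus CRC difference of -3.67 for the probe shown and -3.40 for the other.

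Mmp8, the neutrophil collagenase, and Retnlg, a resistin-like secreted protein of myeloid cells, were high on the same 3 arrays. Mmp8 was 0.60 and 2.50 in the CRC males of 7 days and -1.26 in male 2 of CRC + E171 at 14 days, while the other 28 arrays ranged from -4.97 to -2.88. Retnlg was 3.46 and 3.28 in the CRC males of 7 days and 1.87 in that CRC + E171 male. The other 28 arrays held between -3.02 and 0.16 for Retnlg. For both genes no other array reached the level of the lowest of these 3. Their folds over the median of the 28 others were 28.8 and 107.4 for Mmp8, and 24.1 and 21.3 for Retnlg, in CRC males 1 and 2 of 7 days.

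Ngp, a cathelicidin-like protein of neutrophil granules, was well above background on 3 of 31 arrays. These were CRC male 1 (-0.38) and male 2 (1.78) of 7 days and CRC male 2 of 2 days (-5.20). The remaining 28 arrays had an Ngp signal that was not well above background, male 2 of CRC + E171 at 14 days (-5.95) among them. The Ngp signal of that array was the fourth highest of the 31, and it has no measured level there.

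Csf3, the ligand, was well above background on 9 of 31 arrays. It was -0.48 and 1.37 in the CRC males of 7 days. The other 7 arrays were spread over 6 groups, with levels of -6.37 in CRC female 1 of 7 days, -5.62 and -5.48 in females of the 2-day groups, -4.74 in male 2 of CRC + E171 at 14 days, -3.80 in CRC female 1 of 21 days, and -4.37 and -3.64 in CRC + E171 at 21 days. On none of the CRC + E171 arrays of 7 days, and on none of the CRC arrays of 14 days, was Csf3 well above background. The mean of CRC at 7 days was therefore at least 7.78-fold higher than that of CRC + E171 at 7 days, a bound that sets the dim arrays at the lowest signal that was well above background, or at their own where that was higher. For Ngp the same bound at 7 days was 6.01-fold.

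The probe of Csf3r, the receptor, hardly varied. Its level lay between 5.01 and 6.19 on all 31 arrays (SD 0.29). The lowest level was in CRC male 2 of 7 days, where all other members but Ly6g stood high, and CRC male 1 of that day had 5.35. A lower SD was found in 22.5% of the genes tested, against 96.3% or more for each of the 8 other members. The mean signal of the Csf3r probe was above that of 99.2% of the genes tested. Whether this probe reads Csf3r alone, and the part of the repeat-like run shown above in these levels, were not tested.

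**Figure D1:**
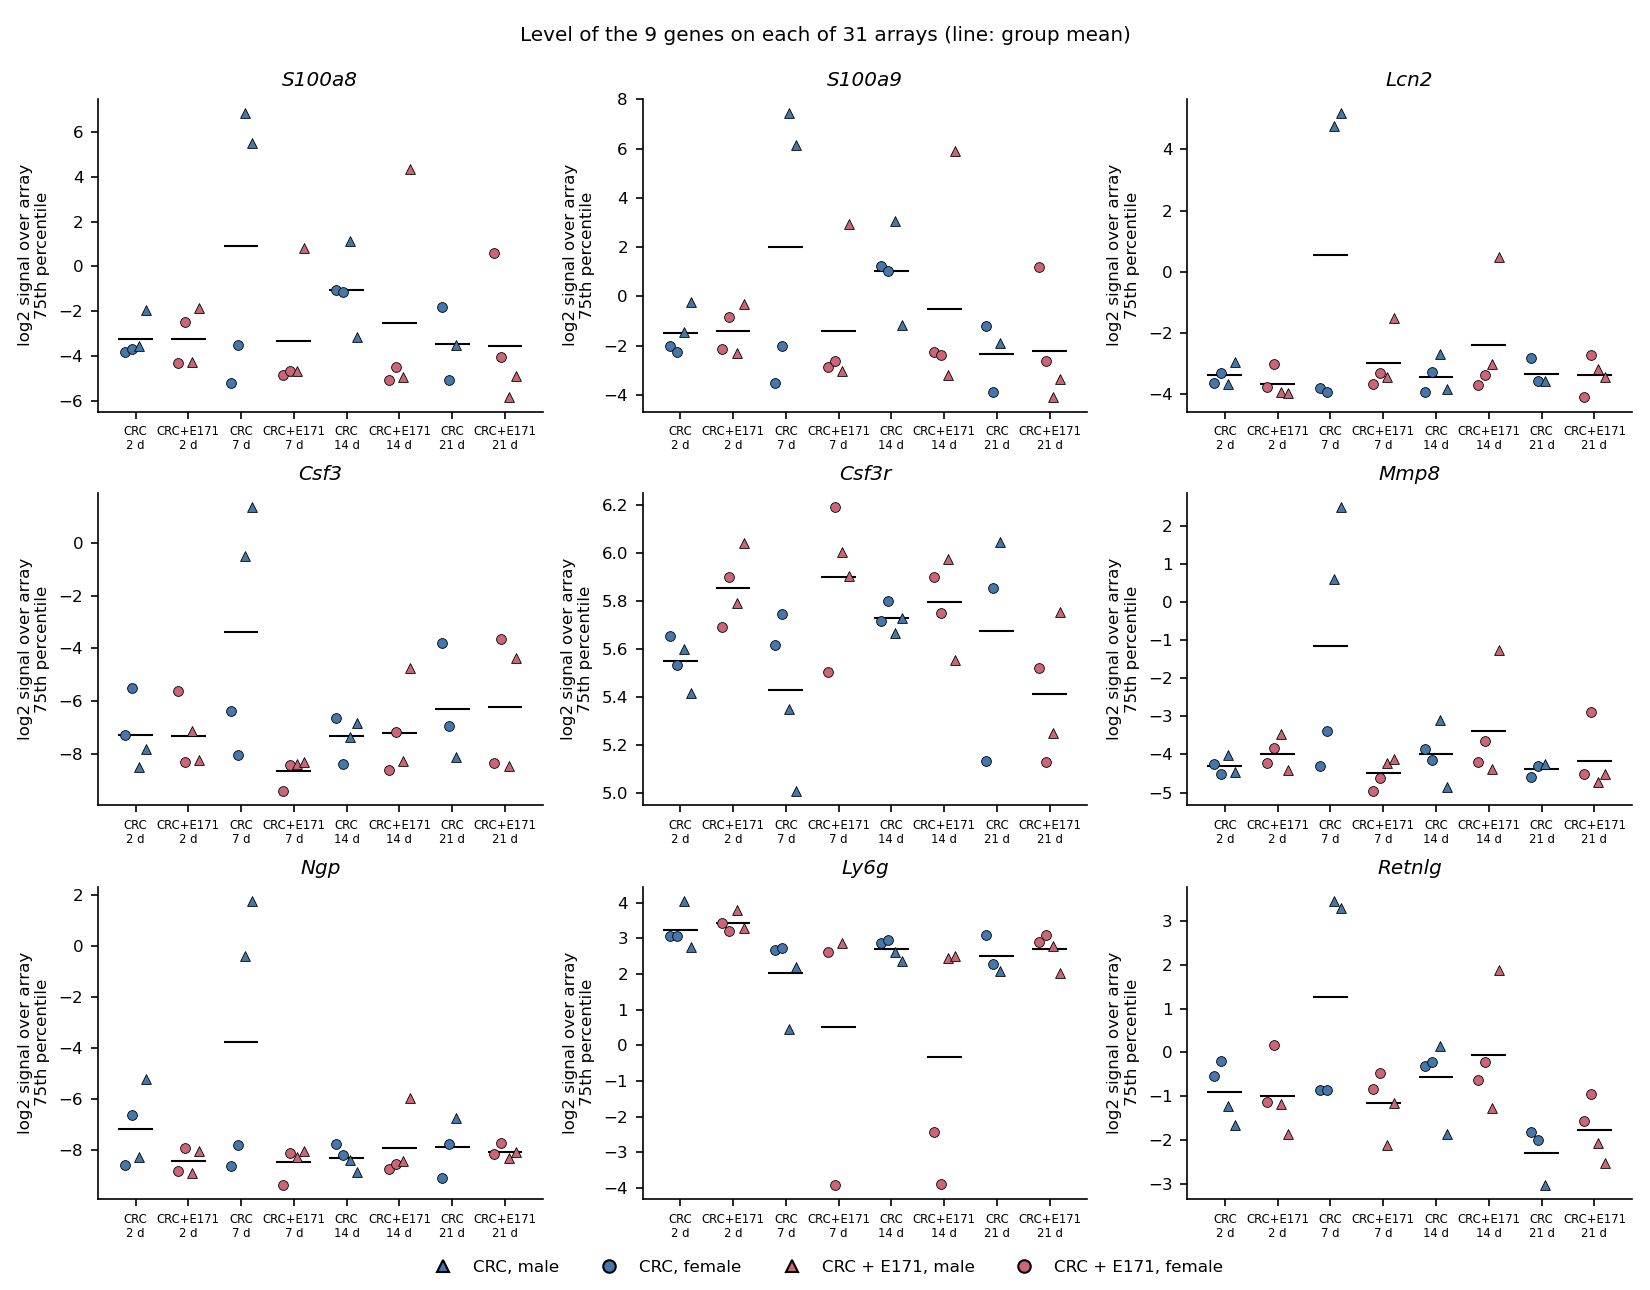
Level of each of the 9 genes (log2 signal over the array's 75th percentile) on 31 arrays, by group on the horizontal axis. Circles are females, triangles males, blue CRC and red CRC + E171, and the line is the group mean. For 7 of the genes both triangles of CRC at 7 days are the highest points (S100a8 at 6.84 and 5.52), whereas Csf3r stays between 5.01 and 6.19 and Ly6g has 3 low points at -2.42 or below.

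Ly6g, which encodes the surface protein that antibodies use to mark mouse neutrophils, did not follow the other members. On 27 of 30 arrays with a value its level lay between 0.46 and 4.05, and it was well above background on all 31 (1 spot, that of male 2 of CRC + E171 at 7 days, was marked as an outlier by the scanner software and left out). The CRC males of 7 days had 0.46 and 2.21, lower than the females of that group at 2.68 and 2.73. The 3 lowest levels were -3.91 in female 2 of CRC + E171 at 7 days and -2.42 and -3.87 in the females of CRC + E171 at 14 days. None of these 3 arrays was high in calprotectin, as S100a8 was -4.67, -5.06 and -4.47 there. Over 30 arrays the correlation of Ly6g with S100a8 was r = 0.07 (rho 0.16), and without the 2 arrays farthest from the median of S100a8 it was r = 0.23.

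The 3 arrays low in Ly6g also stood apart in genes that differ along the length of the gut. Hoxd13 and Hoxb13 are homeobox genes expressed toward the end of the gut. Hoxd13 was -8.19 to -5.47 on these 3 arrays and -0.62 to 3.40 on the 28 others. Hoxb13 was -8.41 to -1.76 against 1.29 to 6.49. Slc51a, a subunit of the basolateral bile acid exporter of the ileum, was 4.18 to 4.39 on the 3 arrays and at most -3.46 on the others. These 3 genes were picked after their values were seen, and 399 probes had all 3 arrays below all others. The labels give the same tissue for all arrays. The transcript that shares 28 bases with the Ly6g probe had a level of -0.13 to 0.33 on the 3 arrays and 1.41 to 4.40 on the others, and r with Ly6g was 0.78 over 30 arrays and 0.41 without the 3. Whether the Ly6g probe reads Ly6g alone was not tested.

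**Figure D2:**
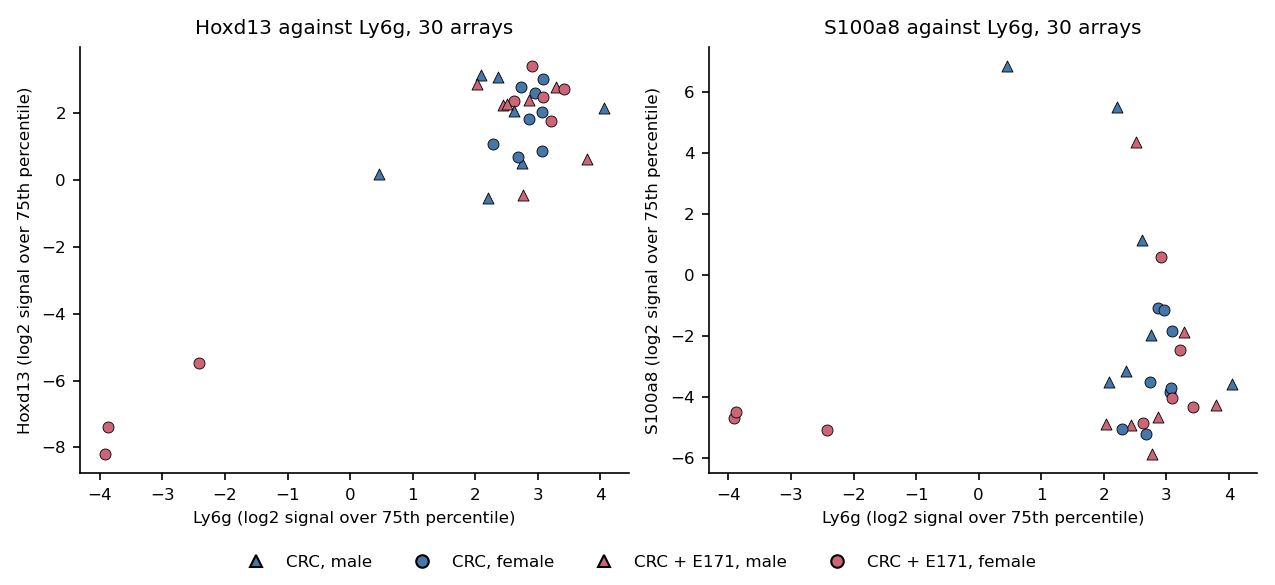
Level of Hoxd13 (left) and S100a8 (right) against that of Ly6g on 30 arrays, all as log2 signal over the array's 75th percentile, with CRC in blue, CRC + E171 in red, females as circles and males as triangles. The 3 arrays with Ly6g at -2.42 or below are the 3 with Hoxd13 at -5.47 or below, and the arrays high in S100a8 have Ly6g between 0.46 and 2.51.

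To see how the members differed between the groups, the mean difference was taken in a limma fit over all 8 groups. A gene counts as a DEG here where the groups differed 1.5-fold or more on a linear scale with an unadjusted p under 0.05. The study states its fold threshold on the log2 scale, so the rule here is the wider one. Of the members 8 passed the filter on low signal; Ngp did not, and its differences come from the fit without a filter. At 7 days 12.4% of the 19796 genes tested met the DEG rule for CRC + E171 against CRC, and none had an adjusted p under 0.05 (Benjamini-Hochberg, smallest adjusted p = 0.188 in limma). The members were chosen with this contrast known, so nothing is read from their count, here or in the comparisons that follow.

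At 7 days 4 of the 8 members that passed the filter were DEG, all lower in CRC + E171. These were Lcn2 (-3.53 ± 1.38, log2 difference ± SE), Mmp8 (-3.33 ± 0.92), Retnlg (-2.40 ± 0.81) and Csf3, for which the bound of 7.78-fold given above stands in place of a difference. Csf3 passed the filter only through CRC at 7 days, where it was well above background on 3 of 4 arrays, and it did not pass the stricter filter, which left 3 of 7 members as DEG. With array weights no member was a DEG, and with only the arrays compared in the fit Csf3 and Mmp8 were. S100a8 (-4.25 ± 2.21) and S100a9 (-3.40 ± 2.03) differed as much, but with larger errors. Group means ± SD for S100a8 were -3.33 ± 2.78 (n = 4) in CRC + E171 and 0.92 ± 6.14 (n = 4) in CRC. For Lcn2 they were -2.97 ± 0.99 (n = 4) and 0.56 ± 5.10 (n = 4). Ngp has only its bound of 6.01-fold, and Ly6g differed by -1.50 ± 1.28. Csf3r was the single member with a higher mean in CRC + E171 (0.47 ± 0.19). The median over the 8 members was -3.36, beside -0.0079 over all genes tested.

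Apart from those of Ly6g and Csf3r, these differences rested on both males of CRC at 7 days. In a fit without these 2 arrays, chosen after seeing the data, the median over the members was -0.034 and no member was a DEG, while 2.30% of all genes were. Lcn2 then had a difference of 0.88, S100a8 of 1.01 and S100a9 of 1.38, in the direction opposite to that with all arrays. Mmp8 (-0.63), Retnlg (-0.29), Ly6g (-2.18) and Csf3r (0.22) kept their sign. Ngp was then well above background on none of the arrays compared and Csf3 on 1, so no direction is given for them. Leaving out 1 array at a time gave a median of -4.68 to -2.01. Without CRC male 1 or CRC male 2 of 7 days, Lcn2 was no longer a DEG, and without either CRC female, or without male 2 of CRC + E171, S100a8 and S100a9 became DEG as well. Without female 1 of CRC + E171, Csf3r became a DEG, higher in CRC + E171. The Ly6g difference turned from -1.50 to 0.72 without female 2 of CRC + E171.

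By sex as labelled, the difference at 7 days was larger in the males for these genes. For Lcn2 it was -7.45 in males and 0.38 in females, with 2 arrays on each side. For Retnlg it was -5.00 in males and 0.20 in females. S100a8 differed by -8.09 in males and -0.41 in females, and Mmp8 by -5.72 and -0.94, with no overlap in either sex for Mmp8. Ly6g went the other way, with 1.53 in males (1 CRC + E171 value) and -3.35 in females. These differences between the sexes were not tested.

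**Figure D3:**
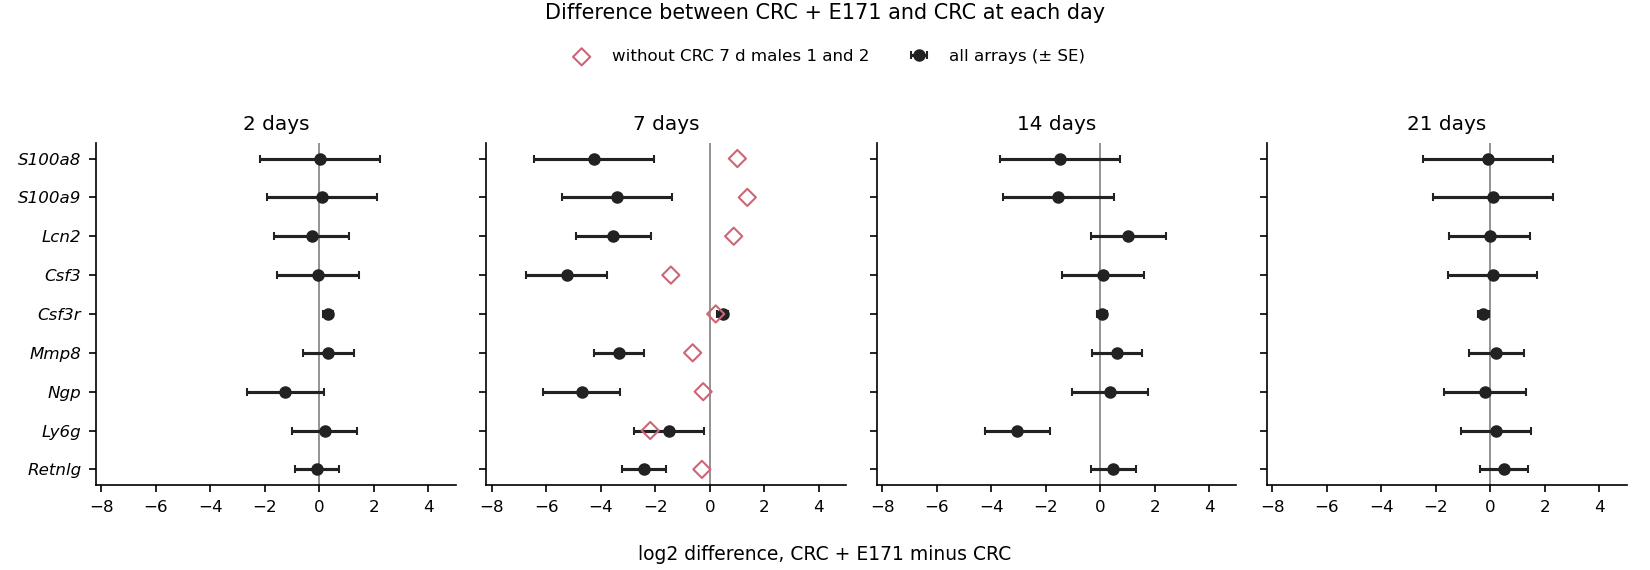
Log2 difference (CRC + E171 minus CRC) of each gene at 2, 7, 14 and 21 days, with bars of ± SE from the limma fit (Ngp from the fit without a filter). For Csf3 and Ngp at 7 days the points rest on arrays not well above background, and only the bounds of 7.78-fold and 6.01-fold hold. Open diamonds at 7 days leave out both CRC males of that day. Black points at 7 days lie left of 0 for all genes but Csf3r, and the diamonds of S100a8, S100a9 and Lcn2 lie right of 0.

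At the other days the groups were closer. At 2 days no member was a DEG (1.72% of all genes were), and the median over the members was 0.063, beside 0.056 over all genes. Csf3r did not overlap at 2 days, nor did 3.91% of all genes, with all 4 CRC + E171 arrays (5.69 to 6.04) above all 4 CRC arrays (5.42 to 5.65). At 21 days no member was a DEG (2.67% of all genes), with a median of 0.091 beside 0.018. At 14 days Ly6g was the single DEG among the members (6.34% of all genes), lower in CRC + E171 by -3.03 ± 1.19 on the log2 scale. It was no DEG without either CRC + E171 female of that day, and without both of them the difference was -0.22.

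Calprotectin at 14 days showed 2 unlike patterns. In CRC, 3 of 4 arrays were between -1.15 and 1.14 for S100a8, and in CRC + E171, 3 of 4 were between -5.06 and -4.47 with male 2 at 4.36. The mean differences were -1.47 ± 2.21 for S100a8 and -1.53 ± 2.03 for S100a9. Without that male they were -3.76 and -3.66, whereas for Lcn2 (0.078), Mmp8 (-0.086) and Retnlg (-0.15) little difference was left. Of the 3 CRC + E171 arrays left, 2 are the females that stood apart in Hoxd13, Hoxb13 and Slc51a, and their part in the difference was not tested. On the CRC arrays of 14 days Lcn2 lay between -3.93 and -2.69 and Mmp8 between -4.86 and -3.10, with the highest of both in male 1. Retnlg was -0.30, -0.22 and 0.15 on the 3 arrays with raised calprotectin and -1.85 on male 2. In male 1 the lists of neutrophil chemokines (2.72) and receptors (0.76), whose values per array are explained below, were the highest of the 28 other arrays.

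Over time, the CRC means were highest at 7 days for Lcn2, Csf3, Mmp8 and Retnlg. The same held for S100a8, S100a9 and Ngp, the last of which was dim on most arrays. From 2 to 7 days, Lcn2 (3.94 ± 1.38), Mmp8 (3.16 ± 0.92) and Retnlg (2.16 ± 0.81) were higher and met the DEG rule (13.4% of all genes did). So did Csf3, which was well above background on 1 of 4 arrays at 2 days and 3 of 4 at 7 days, so its difference is not given. S100a8 (4.18 ± 2.21) and S100a9 (3.50 ± 2.03) did not, but were DEG without either CRC female of 7 days, and S100a8 also with normexp background correction. The median over the 8 members was 3.33. From 7 to 14 days the same 4 genes were lower (DEG 7.4% of all genes), with Lcn2 at -3.996 ± 1.38 and Csf3 at least 7.14-fold lower. The CRC + E171 and the CRC comparisons of 7 days share the same 4 CRC arrays. Without CRC male 1 or CRC male 2 of 7 days Mmp8 was the only DEG of the 4 in either step. Without both CRC males of 7 days none of these were DEG, and Lcn2 turned to -0.47 from 2 to 7 days and to 0.42 from 7 to 14 days. Retnlg turned to 0.30 from 7 to 14 days. The median over the members was then -0.21 from 2 to 7 days and 0.17 from 7 to 14 days. With array weights, or with only the arrays compared in the fit, none of the 4 was a DEG in either step, and with array weights S100a8 and S100a9 were DEG from 7 to 14 days, higher at 14 days, against differences of -1.98 ± 2.21 and -0.97 ± 2.03 without weights. From 14 to 21 days no member was a DEG in CRC (2.35% of all genes), and S100a9 did not overlap (nor did 11.2% of all genes), with -3.87 to -1.19 at 21 days against -1.15 to 3.04 at 14 days. The difference was -3.36 ± 2.19 on the log2 scale. Over these days Retnlg was a DEG without male 2 of 14 days, S100a9 and Retnlg were with only the arrays compared, and S100a8 was as well with array weights, all lower at 21 days.

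In the CRC + E171 arrays none of the granule members met the DEG rule from 2 to 7 days. From 2 to 7 days Lcn2 differed by 0.69 ± 1.38 and Mmp8 by -0.50 ± 0.92, and the median over the members was -0.12. Ly6g was a DEG there (-2.90 ± 1.28, 3.27% of all genes), and without female 2 of 7 days, or male 1 of 2 days, it was none. The Ly6g values of 2 and 7 days did not overlap, nor did those of 5.77% of all genes. From 7 to 14 days no member was a DEG (2.65% of all genes), and S100a8 (0.81 ± 2.21) and S100a9 (0.90 ± 2.03) were higher by their means through 1 array. From 14 to 21 days Retnlg was lower (-1.71 ± 0.81) and Ly6g higher (3.03 ± 1.19), as the 2 DEG among the members (11.1% of all genes). The Ly6g call was lost without either female of 14 days, and the Retnlg call without female 2 or male 2 of 14 days, or without female 1, male 1 or male 2 of 21 days.

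Many neutrophil receptor genes were high on the same arrays as the members, and the primary granule genes were not. Of 16 receptor genes, 12, 16 and 11 were above all 28 other arrays in CRC males 1 and 2 of 7 days and in male 2 of CRC + E171 at 14 days. Of 13 specific and gelatinase granule genes 4, 9 and 2 were, and of 4 primary granule genes none was. Of 10 squamous epithelium genes 10, 0 and 8 were as well, and of 15 other S100 genes 7, 0 and 4. The share of all genes above the 28 others on these arrays was not taken, so these counts are a description only. Of 16 receptor genes of neutrophils, 6 of 14 that passed the filter were DEG at 7 days, all lower in CRC + E171 (median -1.77). Among them were Fpr1 (-3.03) and Fpr2 (-2.48), which sense bacterial peptides, the lectin receptor Clec4d (-3.01) and the leukotriene B4 receptor Ltb4r1 (-1.82). Of 13 other specific and gelatinase granule genes, 4 were DEG, namely lactoferrin Ltf (-3.96), Chil3 (-3.84), cathelicidin Camp (-2.09) and gelatinase Mmp9 (-1.94). Of the 4 primary granule genes on the array, Mpo (-0.72) and Prtn3 (-1.31) were DEG and Elane and Ctsg were not. Of 10 other neutrophil transcripts that passed the filter, 3 were DEG, namely Wfdc21 (-3.63), Asprv1 (-3.45) and Stfa1, all lower in CRC + E171. Stfa1 was not well above background on any CRC + E171 array of 7 days and was at least 43.7-fold lower there. Without both CRC males of 7 days, none of the receptor genes or the specific granule genes was a DEG, and Prtn3 still was.

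The chemokines that attract neutrophils moved with them. Of 4 that passed the filter, 3 were DEG at 7 days, lower in CRC + E171. These were Cxcl5 (-4.32), Cxcl1 (-3.59) and Cxcl2, which was not well above background on any CRC + E171 array of 7 days and was at least 6.65-fold lower there. Cxcl1 was 3.94 and 5.18 in the CRC males of 7 days and at most 0.34 on the 29 other arrays. Of 14 upstream cytokine and receptor genes, 5 were DEG, among them Il6 (-4.58), Osm (-2.40) and the T cell cytokines Il17a (-2.15) and Il17f (-1.65), which induce Csf3 and chemokines in stroma and epithelium. With CRC + E171 at 7 days, 2 of 4 arrays had Il6 well above background, 1 of 4 had Il17a and 1 of 4 had Il17f at such a level. Among 9 genes that bind or carry the products of the members, such as Tlr4 and the receptor Ager of calprotectin and the lipocalin receptor Slc22a17, the endotoxin co-receptor Cd14 was the single DEG (-0.86). Of 10 transcription factors of granulocytes, Cebpb (-1.87) and Cebpd (-0.97) were lower and Gfi1 (1.28) was higher. Of 13 other S100 genes that passed the filter, the calcium-binding S100g of absorptive epithelium was the single DEG, and it was higher (4.31). None of 9 other Ly6 genes and none of the other 3 resistin family genes was a DEG at 7 days.

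Markers of other cell types differed at 7 days too, those of gut epithelium in the direction opposite to the members. Their part in the result was not tested. All 7 pan-epithelial genes (median 1.37), 5 of 6 genes of absorptive colonocytes (3.28) and all 6 goblet cell genes (3.02) were DEG at 7 days and higher in CRC + E171. The summed level of the goblet cell list on a linear scale was 3.09 and 94.9 in the CRC males of 7 days, and 26.2 in male 2 of CRC + E171 at 14 days. It was 297 to 911 on the 28 other arrays. Clca1, a secreted protein of goblet cells, was -1.56 and -1.15 in the CRC males against 5.85 to 7.26 on the 28 others. None of these epithelial genes was a DEG without both CRC males of 7 days, nor was any of the chemokine, cytokine, transcription factor, S100, macrophage, acinar or platelet genes named here. Macrophage genes varied less, with 5 of 10 lower (Ccr2 -1.15 and Mrc1 -1.09, for example) and Cx3cr1 higher (1.10). For a view of markers on each array, their list values were taken as the median over the genes after subtracting the mean of each gene.

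Squamous epithelium, which also makes calprotectin, marked some of the same arrays. The squamous list (10 keratin and cornification genes, 8 of which passed the filter, none a DEG at 7 days) was 7.40 in CRC male 1 of 7 days and 6.91 in male 2 of CRC + E171 at 14 days. It was -0.90 in CRC male 2 of 7 days, which had the highest Lcn2, Csf3, Mmp8 and Ngp of all arrays. On a linear scale the list summed to 585 and 357 in the first 2 of these arrays, 1.43 in the third and 0.63 to 330 on the 28 others. Krt5, a basal keratin, was 6.65, 6.58 and -2.93 in these 3 arrays. Among the 28 others the highest list value was 5.29, in CRC female 1 of 21 days, with S100a8 at -1.81 and Lcn2 at -2.82. Next came female 1 of CRC + E171 at 21 days with 3.30, where S100a8 was 0.60 and Lcn2 was -4.10, the lowest of all arrays. Over the 28 other arrays the list and S100a8 had r = 0.49 and rho = 0.72 (r = 0.43 without the 2 farthest arrays), and the list and Lcn2 had r = -0.04 and rho = -0.05. Pancreatic acinar genes were high in CRC male 2 of 7 days as well (list value 7.83, against -1.10 in male 1), and 9.71 in female 2 of CRC + E171 at 21 days, which had the highest Mmp8 (-2.88) and Csf3 (-3.64) of the 28 other arrays. They were 9.68 in female 2 of CRC + E171 at 2 days, with Mmp8 at -3.84 and Retnlg at 0.16, 6.89 in CRC female 1 of 7 days, with Mmp8 at -4.31, and 5.02 in CRC male 2 of 2 days, with Mmp8 at -4.46. Of these acinar genes 3 of 7 were DEG at 7 days, lower in CRC + E171, and their part was not tested. Pf4 of platelets (-1.09) was the single DEG at 7 days among 5 genes of red blood cells and platelets. The value of that list was 2.10 and 1.14 in CRC males 1 and 2 of 7 days. It was 0.88 in male 2 of CRC + E171 at 14 days and at most 0.63 on the 28 other arrays. None of 9 genes of eosinophils and mast cells, 7 of T cells, 7 of B cells and 6 of smooth muscle was a DEG at 7 days.

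**Figure D4:**
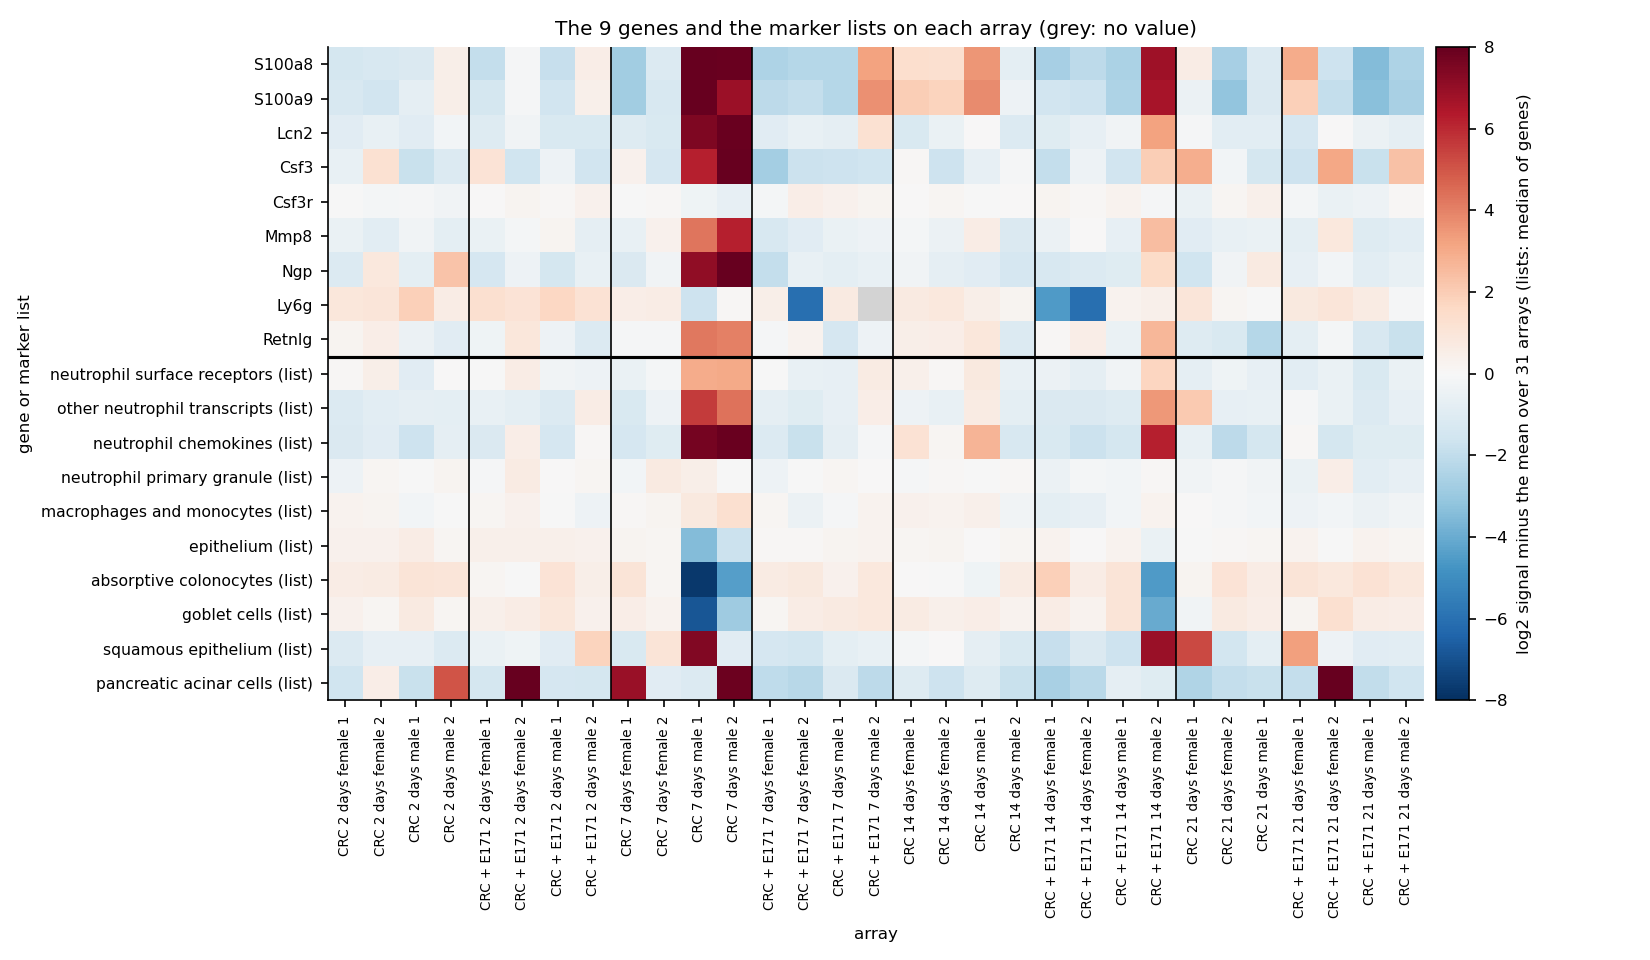
Levels of the 9 genes (top) and the medians of 10 marker lists (bottom) on each array, as log2 values minus the mean over 31 arrays, with red higher, blue lower, the scale ending at 8 on each side and grey for the missing Ly6g value. Both CRC males of 7 days and male 2 of CRC + E171 at 14 days are red for neutrophil receptors, other neutrophil transcripts and chemokines. They are blue for absorptive colonocytes. On these 3 arrays the primary granule list is near 0 (0.49, -0.04 and 0.12), and the squamous list is 7.40, -0.90 and 6.91.

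Calprotectin was also raised on arrays with Lcn2 at -1.51 or lower. After the 3 arrays above, S100a8 was highest in CRC male 1 of 14 days (1.14), male 2 of CRC + E171 at 7 days (0.83), female 1 of CRC + E171 at 21 days (0.60) and both CRC females of 14 days (-1.07 and -1.15). On these 5 arrays Lcn2 was -2.69, -1.51, -4.10, -3.93 and -3.28, and Mmp8 was -3.10, -4.12, -4.52, -3.86 and -4.15. Retnlg was 0.15, -1.14, -1.56, -0.30 and -0.22 on them, so it was near the top of the 28 other arrays (at most 0.16) on the 3 CRC arrays of 14 days. The Lcn2 value of -1.51 was the highest of the 28. The correlation of S100a8 with Lcn2 was r = 0.83 and rho = 0.33 over 31 arrays, and r = 0.34 and rho = 0.09 over the 28 others. For Mmp8 and Lcn2 the values were r = 0.93 over 31 arrays and 0.17 over the 28. Both of these values were thus lower without the 3 arrays, while that between the calprotectin genes was 0.97.

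**Figure D5:**
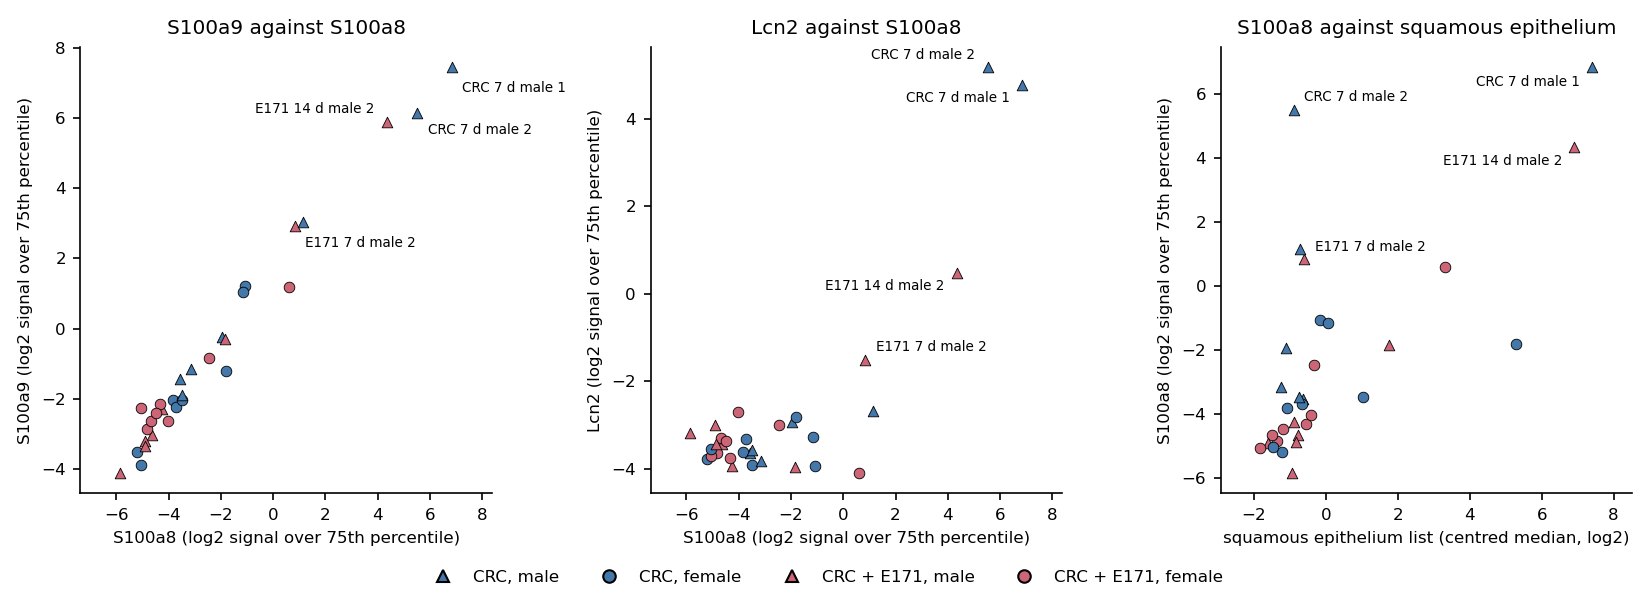
S100a9 against S100a8, Lcn2 against S100a8, and S100a8 against the squamous epithelium list (median of centred log2 values), 1 point per array with CRC in blue, CRC + E171 in red, females as circles and males as triangles. S100a9 rises with S100a8 over all arrays, Lcn2 is above -2 on 4 arrays only, and CRC male 2 of 7 days is high in S100a8 (5.52) with the squamous list at -0.90.

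Genes with the most similar pattern were found by Pearson's r with the mean of the 9 members over 31 arrays, leaving out the members. Among the 10 highest were Kirrel (r = 0.95, rho = 0.78), the lectin receptor Clec4d (0.95, 0.84), the cytokine Il11 (0.95, 0.69), the prostaglandin E synthase Ptges (0.95, 0.85), the leukotriene pathway gene Alox5ap (0.94, 0.73), Cxcl1 (0.94, 0.72), the urokinase receptor Plaur (0.94, 0.72), Lrg1 (0.94, 0.68) and the chemokine-binding receptor Ackr1 (0.93, 0.65). Without CRC males 1 and 2 of 7 days, the arrays farthest from the median, r was still 0.91 for Clec4d and fell to 0.72 for Ackr1. The 5 lowest were the carboxylesterase Ces2c (r = -0.96, rho = -0.84), Pm20d1 (-0.95, -0.76), Chmp4c (-0.94, -0.59), Selenbp2 (-0.94, -0.72) and the sodium-proton exchanger Slc9a2 (-0.94, -0.52). Each member is part of this mean, so its own r (0.80 to 0.94, except Csf3r with -0.51 and Ly6g with 0.11) is raised by construction. Spearman's rho was 0.90 for S100a8 and 0.85 for S100a9, but 0.42 for Lcn2, 0.44 for Retnlg, 0.46 for Csf3, 0.52 for Ngp and 0.54 for Mmp8.

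Promoters are given for 4 members that were high together, as RefSeq sequence of build GRCm38.p6 from 250 bases upstream to the last base before the annotated start, on the strand of the gene. Capitals mark matches, on either strand, to TATAAA (the TATA box), TTGCNNAA (C/EBP), GAGGAA (PU.1), TTCNNNGAA (STAT) or the kappa B site of NF-kB. The windows are chr3:90668821-90669070 for S100a8, chr3:90695722-90695971 for S100a9, chr2:32387740-32387989 for Lcn2 and chr9:110419558-110419807 for Ngp.
S100a8: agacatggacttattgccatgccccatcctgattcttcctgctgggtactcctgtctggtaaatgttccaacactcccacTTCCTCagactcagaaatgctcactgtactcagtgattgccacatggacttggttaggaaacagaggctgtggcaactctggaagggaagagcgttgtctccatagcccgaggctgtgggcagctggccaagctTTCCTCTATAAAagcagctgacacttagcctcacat
S100a9: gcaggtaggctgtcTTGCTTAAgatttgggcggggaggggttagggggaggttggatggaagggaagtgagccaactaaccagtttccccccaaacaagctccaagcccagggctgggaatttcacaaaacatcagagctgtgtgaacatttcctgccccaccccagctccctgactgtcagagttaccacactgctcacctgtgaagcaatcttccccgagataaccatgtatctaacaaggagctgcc
Lcn2: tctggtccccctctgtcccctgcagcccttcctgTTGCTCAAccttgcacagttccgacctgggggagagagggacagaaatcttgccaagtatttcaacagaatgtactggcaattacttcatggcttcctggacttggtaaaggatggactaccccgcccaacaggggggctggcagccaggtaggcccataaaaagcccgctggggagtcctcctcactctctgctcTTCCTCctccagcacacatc
Ngp: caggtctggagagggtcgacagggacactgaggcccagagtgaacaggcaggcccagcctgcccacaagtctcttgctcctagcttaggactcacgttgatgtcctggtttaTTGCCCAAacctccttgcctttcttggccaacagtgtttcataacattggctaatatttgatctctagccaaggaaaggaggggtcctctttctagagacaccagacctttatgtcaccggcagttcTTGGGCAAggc

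Over the whole window (the 250 bases before the start and 50 after it), the C/EBP letters were in 6 of 8 members with a promoter in the table, against 10.8% of 27025 promoters. They were in S100a9, Lcn2, Mmp8, Ngp, Ly6g and Retnlg, so also in Ly6g, which was not high with the others, and not in S100a8 or Csf3r. The PU.1 letters were in 5 of 8 members and 28.3% of all promoters, and the TATA letters in 4 of 8 and 14.2%. No member held the NF-kB letters (1.62% of all promoters) or the STAT letters (8.47%). A match is a description of the letters alone.

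The slides and scan days could be set beside the result in part. CRC arrays of 7 days and CRC + E171 arrays of 7 days were on different slides, and CRC + E171 at 21 days shared slides with CRC at 7 days. The mean of the differences at 7 and 21 days within slides had a median over the members of -1.65, beside 0.011 over all genes. For 2 and 14 days it was 0.11. Within the single scan day that held arrays of both groups at 7 days (2 against 2) the median was -3.40.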

How the data were processed

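Total RNA of the distal colon of 31 mice was measured on one-colour Agilent 60k arrays. The deposited processed signal is an intensity per spot: the authors scanned the arrays with Agilent's Feature Extraction software, whose processed signal is background-subtracted and detrended within the array and not normalized between arrays. The authors also deposited a table of log2 values, normalized between arrays by a method not given in the sources used here; each of its 31 columns ranked probes most like its own array (Spearman 0.994 or more), and 7 of the 9 members were found in it. Missing values in it had been imputed by the authors. It served as an alternative. The submitters' processing notes name limma.

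Here, log2 of the processed signal minus log2 of the array's 75th percentile was used, without spots marked as outliers. A probe entered the fit if, in at least 1 group, its mean log2 signal reached 4 and 60% of the arrays showed it well above background with no outlier mark. Probes were matched to RefSeq genes by accession, symbol or synonym and averaged per gene. One limma model over 8 groups (R 4.3.3, limma 3.58.1; Python 3.11.15) gave differences, standard errors and p-values adjusted by Benjamini-Hochberg. The script was checked on simulated data. Bounds for dim probes, 22 gene lists with 194 genes on the array, and likeness to the mean of the members were computed as stated in the report; list levels per array average all probes of a gene, the fit those that passed the filter. One gene of similar pattern is not reported here. From each list at most 4 genes that met the DEG rule were named, by the size of the difference, and at most 2 with the highest signal where none did; other genes were named as examples of their lists. The members and the lists were chosen with earlier results of these data known. Alternatives were other normalizations, background corrections, filters, probes, models and blocks, and leaving out arrays; leaving out both CRC males of 7 days was chosen after seeing the data. The number of arrays limits the precision.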

Additional observations from a re-analysis of the deposited data

Results flagged for a closer look

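In 10 of 62 combinations of a gene and a group of 4, 1 array stood far from the other 3 (Dixon's criterion). The genes share arrays and were chosen by their levels on them. The nominal rate of that criterion, about 1 of 20, therefore does not apply to this count. Male 2 of CRC + E171 at 14 days was such an array for S100a8 (4.36), S100a9 (5.89), Lcn2 (0.47) and Ngp (-5.95, not well above background). Male 2 of CRC + E171 at 7 days was one for S100a8 (0.83), S100a9 (2.93) and Lcn2 (-1.51). The others were S100a8 in CRC male 2 of 2 days (-1.95), Mmp8 in female 2 of CRC + E171 at 21 days (-2.88) and Csf3 in female 1 of CRC + E171 at 7 days (-9.42, not well above background).

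For 3 genes at 7 days, all CRC + E171 arrays lay below all CRC arrays in 1 sex and above them in the other. There were 2 arrays per side at most. The share of all genes with this pattern was not taken, so the count is a description only. The male minus female difference of the E171 effect was -7.84 for Lcn2, -5.19 for Retnlg and 4.88 for Ly6g on the log2 scale. These differences were not tested.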

How the results depend on the processing

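The results are medians of the log2 difference over the members that passed each filter. Over the alternatives other than leaving out single arrays, 151 of 156 such medians moved by less than the spread between replicates. With array weights the median for CRC + E171 against CRC at 7 days was -0.49 and that for the CRC arrays from 2 to 7 days 0.18; without both CRC males of 7 days these were -0.034 and -0.21, and that from 7 to 14 days turned from -1.90 to 0.17. With scan day as a fixed block the median at 2 days was -0.24. Among members that met the DEG rule, the sign turned, without both CRC males of 7 days, for Lcn2 at 7 days (0.88), from 2 to 7 days (-0.47) and from 7 to 14 days in CRC (0.42), and Retnlg from 7 to 14 days in CRC (0.30, and 0.26 with array weights). S100a8 and S100a9 turned as well, to 1.01 and 1.38 at 7 days, to -1.09 and -1.28 from 2 to 7 days and to 3.29 and 3.805 from 7 to 14 days.

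Leaving out 1 array at a time, the median for CRC + E171 against CRC was -0.017 to 0.27 at 2 days, -4.68 to -2.01 at 7, -0.43 to 0.31 at 14 and -0.16 to 0.59 at 21. For the CRC arrays it was 1.94 to 4.55 from 2 to 7 days, -3.35 to -0.54 from 7 to 14 and -0.50 to -0.17 from 14 to 21. For the CRC + E171 arrays it was -1.02 to 0.10, -0.20 to 1.46 and -1.22 to 0.20 over the same steps. Within slides it was -2.37 to -0.88 for 7 and 21 days and -0.19 to 0.20 for 2 and 14 days.

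The labels number 2 mice per sex in each group. Mice with the same sex and number in different groups deviated together in part (15 pairs, correlations of -0.18 to 0.48, 8 over 0.1), so the number was not taken to pair them. With a replicate block of sex and number the median was -3.36 at 7 days and -0.29 at 21 days, and among the member calls only that of Retnlg from 14 to 21 days in CRC + E171 was lost.

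At 7 days no member was a DEG with array weights, 2 were (Csf3 and Mmp8) when only the arrays compared were fitted, and in the authors' values 3 were lower (Lcn2, Mmp8 and Retnlg) and Csf3r was higher. At 14 days S100a8 and S100a9 were also DEG, lower in CRC + E171, with array weights, and no member was when only the arrays compared were fitted. In CRC + E171, Ly6g was no DEG from 2 to 7 days in the authors' values or with only the arrays compared, and was one from 7 to 14 days with array weights. From 14 to 21 days it was lost with only the arrays compared, and Retnlg was lost in the authors' values, with normexp, with quantile normalization, with scan day as a block and with the replicate block. Csf3r was a DEG over that step, lower, in the authors' values and with quantile normalization. DEG over all genes numbered 2455 at 7 days (456 without both CRC males of 7 days), 340 at 2 days (204 to 877 over the alternatives), 1256 at 14 days (1083 to 2556) and 528 at 21 days (355 to 1204). In CRC they numbered 2656 (383 to 2824), 1465 (610 to 1587) and 466 (334 to 2188) over the successive steps, and in CRC + E171 648 (235 to 1269), 524 (313 to 929) and 2192 (1441 to 2649). The cause was not tested. Signals that were not well above background limit Csf3 (22 of 31 arrays) and Ngp (28 of 31), to bounds where a whole group was dim.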
